A study of Mus musculus with 12 samples.

Results

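The genes described here encode the proteasome, its regulators and its assembly factors, in mouse muscle satellite cells. Members were the protein-coding genes whose symbol starts with Psm, a letter from a to g and a digit. There were 49 of them among the 25093 genes of the deposited count table, of which 16583 are protein coding, and 1 further match to the symbol, the pseudogene Psmb7-ps2, was left out. Of the 49, 48 encode subunits, activators, an inhibitor or chaperones of the proteasome, and Psmc3ip matched by name only, since its product acts in meiotic recombination. Psma8, the testis alpha subunit, has no row in the table used here. The members fall into 7 alpha subunits and 4 non-catalytic beta subunits of the 20S core, 3 constitutive catalytic subunits (Psmb5, Psmb6 and Psmb7), 3 immunoproteasome catalytic subunits (Psmb8, Psmb9 and Psmb10), 1 thymoproteasome subunit (Psmb11), 6 ATPases, 3 other base subunits and 8 lid subunits of the 19S regulator, 3 chaperones of 19S assembly, 5 activators, 1 inhibitor, 4 chaperones of 20S assembly, and Psmc3ip.

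The 26S proteasome degrades ubiquitin-tagged proteins. Its 20S core is a stack of rings, the outer ones of alpha subunits that gate entry and the inner ones of beta subunits, some of which cut the substrate. The 19S regulator caps the core, with a lid that removes ubiquitin and a ring of ATPases that unfold the protein. Interferon-gamma induces alternative catalytic subunits, which replace the constitutive ones in newly built particles and form the immunoproteasome. It is abundant in immune cells and favours peptides suited to MHC class I. In muscle the proteasome is known for protein breakdown during atrophy, and for the protein turnover that accompanies satellite cell activation.

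RNA was sequenced from 12 libraries of sorted satellite cells of mice aged 3 to 4 months. Control mice were Pax7-CreERT2/+ with Gli3+/+ and R26R-YFP (Gli3+/+), and conditional mutants were Pax7-CreERT2/+ with Gli3 fl/fl and R26R-YFP (Gli3Δ/Δ), and both received tamoxifen. Cre is driven from the Pax7 locus, so that the deletion of exon 8 of Gli3, which encodes a transcription factor of Hedgehog signalling, is restricted to satellite cells and their progeny. Quiescent satellite cells (QSCs), 3 libraries per genotype, were sorted from uninjured hindlimb muscle as α7-Integrin+ CD34+ cells and pooled from 2 to 3 mice per library. Activated satellite cells (ASCs), 6 libraries of 1 mouse each, were sorted as α7-Integrin+ VCAM1+ cells from tibialis anterior and gastrocnemius 3 days after cardiotoxin, and are a mixture of dividing satellite cells and progenitors. By their sample labels 3 ASC samples are Gli3+/+ and 3 are Gli3Δ/Δ. Both gates removed cells positive for CD31, CD45, SCA1 or CD11b.

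The genotype of the 6 ASC columns could not be read from their names, and 2 ASC samples carry titles that go against their own genotype labels, so ASCs were used as 1 group and no genotype comparison was made in them. The ASC group therefore mixes both genotypes, and its spread may include a difference between them. They are called ASC 1 to ASC 6 here, in the order of the table. Libraries held 36886130 to 65750131 estimated counts. Levels are given as CPM, the count of a gene divided by the size of its library after TMM scaling over all 12 libraries. CPM is a relative measure in bulk RNA, and a change in the number of cells of a type cannot be told apart from a change in RNA per cell. State, injury, muscles taken, gate and pooling also differ together between QSCs and ASCs and cannot be told apart.

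The QSC libraries carried satellite cell markers, and in ASCs the level of such markers differed from gene to gene. Pax7 lay between 800.3 and 1181 CPM in the 6 QSC libraries and between 50.9 and 117 in the ASC libraries, and the muscle regulator Myod1 lay between 112 and 159 and between 340.1 and 565. Calcr and Chrdl2 lay between 125 and 264 and between 106 and 210 CPM in QSCs. In ASCs they were at most 3.32 and 3.27 CPM. Gli3 itself was at 11.3, 9.63 and 9.4 CPM in Gli3+/+ QSCs and at 9.58, 10.7 and 6.27 in Gli3Δ/Δ QSCs (adjusted p = 0.916, edgeR). A gene total keeps the reads of the other exons, so it does not check the genotype labels. Across ASCs, Gli3 ran from 16.7 to 60.4 CPM.

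A pair of libraries stood apart. ASC 6 had the most RNA of non-myogenic markers: the 8 macrophage markers summed to 5258 CPM there against 248 to 742 in the other ASC libraries and 10.4 to 29.0 in QSCs, led by Lyz2 at 3396 CPM. Its sums were also highest for fibro-adipogenic markers (3300 CPM against 150.1 to 505, led by Col1a1), for Schwann cell markers (676 against 14.0 to 57.4) and for endothelial markers (325 against 47.7 to 111, led by Pecam1). Lymphocyte markers summed to 4.62 CPM and neutrophil markers to 54.0, where Ly6g, a defining neutrophil marker, was at most 0.136 CPM in any ASC library. Gli3+/+ QSC 3 was the other, with Sdc4 at 2616 CPM against 893 to 1406 in the remaining QSC libraries, and with 20 of the 49 members at their highest QSC level (40.8%), where 23.0% of all genes with a mean of at least 1 CPM peaked in that library. These libraries were noticed after the values were seen, and results that rest on them are given with and without them.

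**Figure D1:**
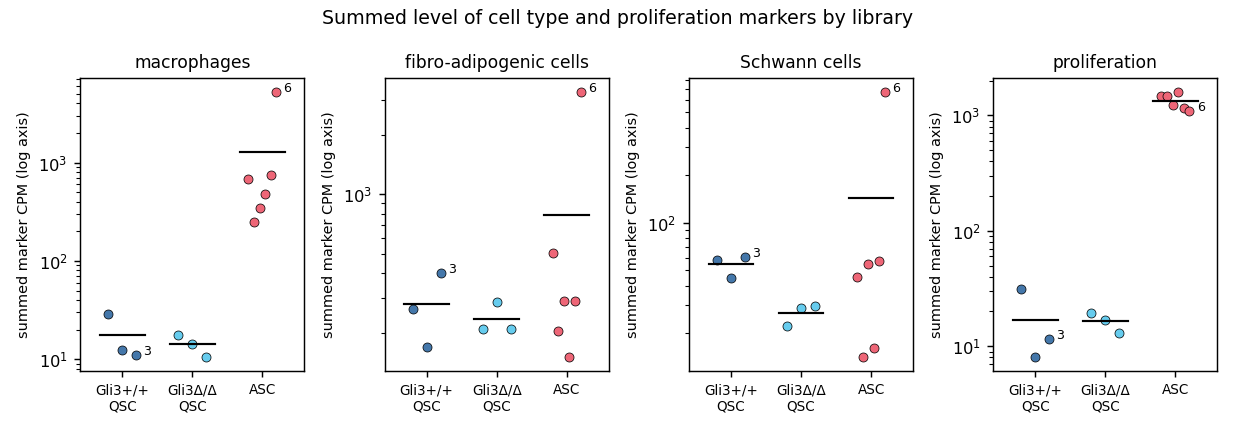
Summed CPM of fixed marker lists in each library on log axes, for macrophages, fibro-adipogenic cells, Schwann cells and dividing cells, with points for libraries, lines for group means, and ASC 6 and Gli3+/+ QSC 3 numbered. Proliferation markers sit between 1086 and 1601 CPM in all ASCs and at 31.2 or less in all QSCs, and ASC 6 lies above the other ASCs in the first 3 panels.

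The core promoters of 4 catalytic subunits are printed because the constitutive and the interferon-inducible genes are the contrast the results turn on. Each run is the 250 bases before the transcription start in RefSeq (GRCm38.p6), 5′ to 3′ on the gene's own strand. Capitals mark matches on either strand to the cores of the antioxidant response element (TGACNNNGC), bound by the NRF1 and NRF2 proteins that control proteasome genes, of the interferon-stimulated response element (GAAA, any 2 bases, GAAA), or of the gamma-activated site (TTCNNNGAA), which reads the same on both strands.
Psmb5 (GRCm38, chr14:54617996-54618245, minus strand): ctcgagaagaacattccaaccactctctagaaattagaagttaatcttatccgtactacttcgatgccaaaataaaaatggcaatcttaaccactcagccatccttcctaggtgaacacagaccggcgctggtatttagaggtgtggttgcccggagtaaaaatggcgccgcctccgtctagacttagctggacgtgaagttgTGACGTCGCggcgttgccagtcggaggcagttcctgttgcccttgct
Psmb6 (GRCm38, chr11:70525107-70525356, plus strand): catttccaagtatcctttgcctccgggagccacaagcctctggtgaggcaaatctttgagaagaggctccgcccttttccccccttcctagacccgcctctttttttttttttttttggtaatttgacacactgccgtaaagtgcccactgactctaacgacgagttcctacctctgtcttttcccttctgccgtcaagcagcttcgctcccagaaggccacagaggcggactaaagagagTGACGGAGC
Psmb8 (GRCm38, chr17:34197945-34198194, plus strand): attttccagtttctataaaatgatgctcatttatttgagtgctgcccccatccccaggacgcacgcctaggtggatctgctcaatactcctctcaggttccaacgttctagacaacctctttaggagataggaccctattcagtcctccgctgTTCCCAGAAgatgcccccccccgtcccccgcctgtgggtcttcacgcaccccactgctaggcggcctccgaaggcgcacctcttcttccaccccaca
Psmb9 (GRCm38, chr17:34187331-34187580, minus strand): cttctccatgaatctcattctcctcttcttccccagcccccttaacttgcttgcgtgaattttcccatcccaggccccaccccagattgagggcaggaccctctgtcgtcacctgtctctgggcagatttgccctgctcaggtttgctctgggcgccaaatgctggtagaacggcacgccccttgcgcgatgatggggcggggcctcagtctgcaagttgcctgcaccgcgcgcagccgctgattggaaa

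Psmb5 held TGACGTCGC from 47 to 39 bases before the start and Psmb6 held TGACGGAGC from 9 to 1 bases before it. Psmb8 held TTCCCAGAA from 97 to 89 bases before the start, and none of the 3 cores occurred in the Psmb9 window. Over the 42 members with a RefSeq promoter, 5 held the antioxidant core (11.9%), where 11.5% of 27025 genes did so. The interferon-stimulated core was in 3 (Psmb3, Psmd4 and Psmd9, 7.14% against 3.46%), the gamma-activated core in 2 (Psmb8 and Psmg1, 4.76% against 8.13%), and CCAAT, searched on both strands, in 15 (35.7% against 37.5%). A match is a string of letters and not a measured site. Psmb8 (chr17:34197721-34201454, plus strand) and Psmb9 (chr17:34181987-34187764, minus strand) are neighbours in the MHC class II region, and Psmb10 (chr8:105935735-105938444), Psmb5 (chr14:54614119-54618022), Psmb6 (chr11:70525367-70527858) and Psmb7 (chr2:38588036-38644087) lie on other chromosomes (gene bounds from GENCODE, GRCm38). These gene bounds reach further upstream than the RefSeq starts of Psmb5, Psmb8 and Psmb9, so the windows of Psmb8 and Psmb9 lie inside them.

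ASCs were compared with QSCs to ask how proteasome genes differ between resting and injured muscle. Proteasome transcripts were higher in ASCs in nearly every functional class. Of the 49 members, 42 were called higher and 1, Psmb11, lower, with an adjusted p under 0.05 and a fold of at least 1.2 (edgeR quasi-likelihood test, Benjamini-Hochberg adjustment over 25093 genes). The background was large, with 31.1% of all genes called higher, 27.8% lower and 58.9% in either direction. The median log2 fold change of members was 1.38, against 0.01 over all genes and 0.21 over protein-coding genes. Ranges of the 6 ASC and 6 QSC libraries did not overlap for 40 members, 39 of them higher in ASCs, where 39.6% of all genes had ranges that did not overlap and 20.6% had such ranges and were higher. Summed over members, RNA rose from 2653 ± 315 CPM in QSCs to 6595 ± 739 in ASCs (mean ± SD, n = 6 each), a ratio of 2.49. The lowest ASC sum, 5378 CPM in ASC 6, was above the highest QSC sum, 3128 CPM in Gli3+/+ QSC 3.

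The 4 proliferation markers rose with the members, from 7.99 to 31.2 CPM in QSCs to 1086 to 1601 in ASCs. Of the markers of non-myogenic cell types that were called with all libraries, all but Tek were higher. Called higher were 8 of 8 macrophage markers, 3 of 4 fibro-adipogenic markers (Col1a1, Pdgfra and Ly6a), and 1 each of 3 Schwann cell, 4 neutrophil and 4 measured lymphocyte markers. Of 4 endothelial markers 0 were called higher and 1, Tek, was lower (log2 fold change -3.30, adjusted p = 2.06e-05, edgeR). Pecam1, Cdh5 and Kdr had log2 fold changes of 0.83, 0.89 and 0.69 and were not called. Of 10 satellite and myogenic markers 3 were higher and 7 lower. Without ASC 6, Col1a1 lost its call (log2 fold change 0.30 against 2.04), as did the lymphocyte gene Cd3e, 2 lymphocyte markers were called lower, and the counts of the other lists were the same. The 5 markers of the response to tissue dissociation (Fos, Atf3, Egr1, Jun and Hspa1a) all fell, from 24286 to 33420 CPM summed in QSCs, led by Egr1, to 974 to 2692 in ASCs. Their part in the difference was not tested. Without ASC 6 and Gli3+/+ QSC 3 together, 41 members were called higher and 1 lower. Over the alternatives other than leaving out a single library, that setting among them, 5522 to 7902 genes were called higher and 5104 to 8239 lower.

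**Figure D2:**
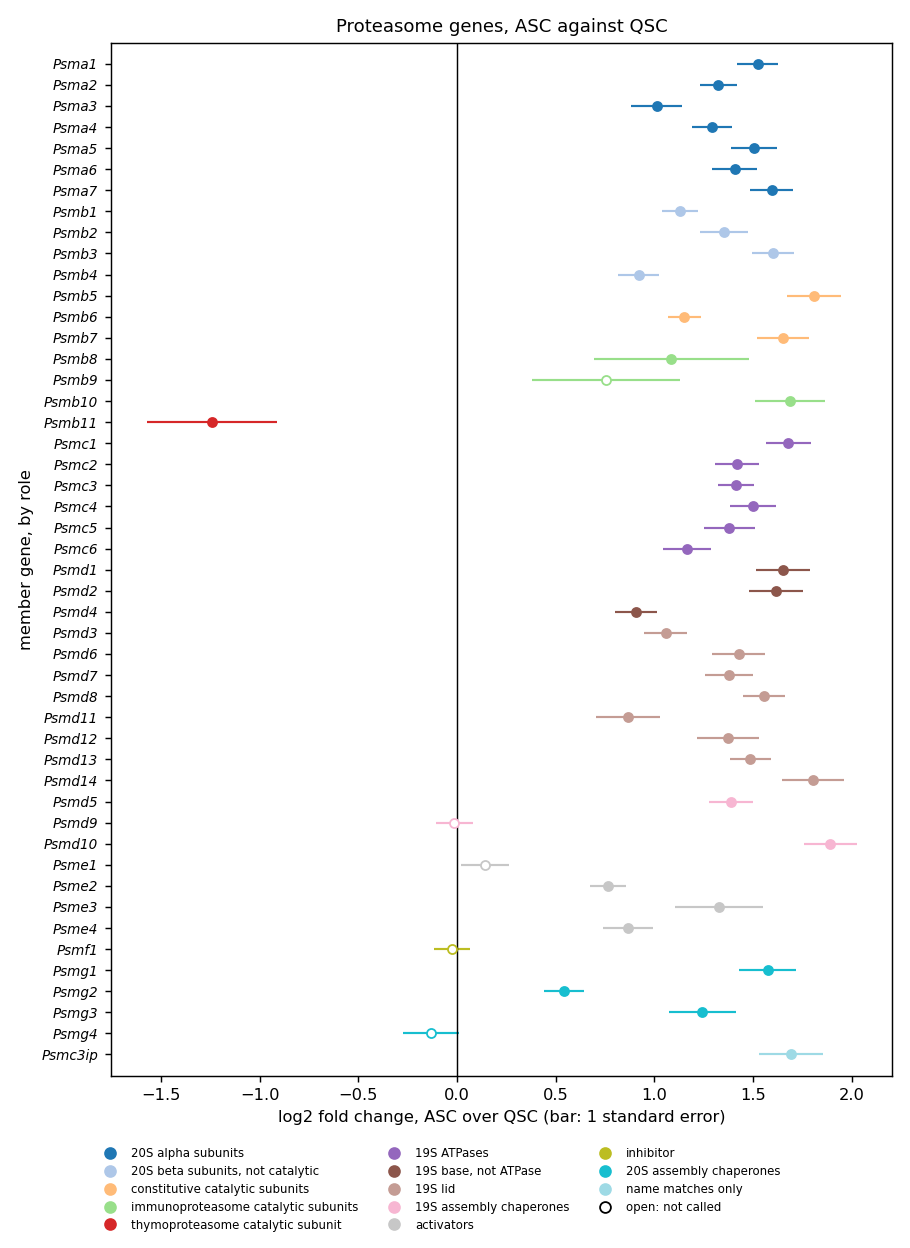
Log2 fold change of each member in ASCs over QSCs, with 1 standard error and coloured by role, where filled points were called and open ones were not (Psme2b, near 0 CPM, is not drawn). The standard 20S and 19S subunits lie between 0.87 (Psmd11) and 1.81 (Psmb5), and Psmd9, Psme1, Psmf1 and Psmg4 lie near 0.

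All 7 alpha subunits and all 4 non-catalytic beta subunits rose. The alpha subunits ranged from Psma3, with a log2 fold change of 1.01 ± 0.13 (SE), to Psma7 at 1.59 ± 0.11, where Psma3 was the only one below 1.29. Psma7 went from 52.1 to 65.0 CPM over the 6 QSC libraries to a lowest level of 139, a median of 189.8 and a highest of 206 over the 6 ASC libraries (adjusted p = 9.3e-08, edgeR). Among the beta subunits the smallest change was that of Psmb4 (log2 fold change 0.92 ± 0.10, SE), at 73.3 to 104 CPM in QSCs and 142 to 181 in ASCs, and the largest was that of Psmb3 (1.60 ± 0.11, SE). Psmb3 lay between 41.3 and 52.3 CPM in QSCs and between 109.5 and 165 in ASCs. Per kilobase of the main transcript, the 14 standard core subunits spanned 17.4 CPM (Psma3) to 87.1 CPM (Psmb6) in QSCs and 35.1 (Psma3) to 201 (Psma7) in ASCs (means over 6 libraries). The particle holds equal numbers of each of these subunits, and their transcripts were not at equal levels. In QSCs the place of Psma3 rests on the length of 2846 bases of its main transcript, since without division by length the lowest mean was that of Psmb5 (29.5 CPM) and Psma3 was at 49.5. In ASCs Psma3 was lowest without division as well, at 99.9 CPM.

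The 3 constitutive catalytic subunits rose together, and the ranges of the groups did not overlap for any of them. Psmb5, which carries the chymotrypsin-like activity, was at 24.5, 22.8 and 28.7 CPM in Gli3+/+ QSCs and 34.2, 31.4 and 35.6 in Gli3Δ/Δ QSCs. In ASCs 1 to 6 it was at 133, 109.7, 87.7, 117, 78.1 and 88.8 CPM. Its change was 3.51-fold (log2 1.81 ± 0.14, SE, adjusted p = 2.28e-07, edgeR), the largest fold of the 6 catalytic subunits. Psmb7, the trypsin-like subunit, was at 64.8, 52.4 and 80.5 CPM in Gli3+/+ QSCs, 70.5, 75.0 and 81.8 in Gli3Δ/Δ QSCs, and 264, 224, 228, 247, 198 and 172 in ASCs. It rose 3.14-fold (adjusted p = 3.32e-07, edgeR). Psmb6, with caspase-like activity, rose least, 2.22-fold (adjusted p = 1.89e-07, edgeR), from 65.98, 61.2 and 70.1 CPM in Gli3+/+ QSCs and 73.1, 68.7 and 77.9 in Gli3Δ/Δ QSCs to 179, 145, 149.9, 166, 144 and 142 in ASCs.

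The immunoproteasome subunits did not move as a block. Psmb10, the counterpart of Psmb7, rose clearly: it was at 11.3, 8.99 and 7.76 CPM in Gli3+/+ QSCs, 7.35, 13.1 and 12.2 in Gli3Δ/Δ QSCs and 35.2, 24.3, 27.0, 34.0, 35.2 and 39.4 in ASCs. Every ASC library was above every QSC library, and the change was 3.22-fold (adjusted p = 4.18e-06, edgeR). Psmb8, the counterpart of Psmb5, was at 9.04, 6.26 and 4.63 CPM in Gli3+/+ QSCs and 5.59, 12.5 and 12.1 in Gli3Δ/Δ QSCs. In ASCs 1 to 6 it was at 13.5, 9.44, 12.5, 9.1, 16.7 and 42.9 CPM. The groups overlapped and ASC 6 held by far the highest value. Psmb8 passed the threshold with all libraries (2.12-fold, log2 1.09 ± 0.39, SE, adjusted p = 0.0307, edgeR), and without ASC 6 its log2 fold change fell to 0.55 with an adjusted p of 0.0662 (edgeR).

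Psmb9, the counterpart of Psmb6, was the lowest of the 6 catalytic genes. It was at 3.55, 2.56 and 1.7 CPM in Gli3+/+ QSCs, 2.37, 5.16 and 3.71 in Gli3Δ/Δ QSCs, and 3.94, 3.1, 4.35, 3.82, 3.9 and 12.5 in ASCs. It did not pass the threshold (log2 fold change 0.76 ± 0.37, SE, adjusted p = 0.0989, edgeR), and without ASC 6 the log2 fold change was 0.27 (adjusted p = 0.361, edgeR). ASCs 1 to 5 lay inside the QSC range for Psmb9 and ASC 6 stood above it. Psmb11, the thymus-specific subunit, was at low levels, from 0.975 to 1.5 CPM in QSCs and from 0.265 to 0.918 in ASCs, with no overlap (log2 fold change -1.24 ± 0.33, SE, adjusted p = 0.00609, edgeR). Against Gli3Δ/Δ QSCs alone Psmb11 did not pass the threshold (adjusted p = 0.0628, edgeR).

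**Figure D3:**
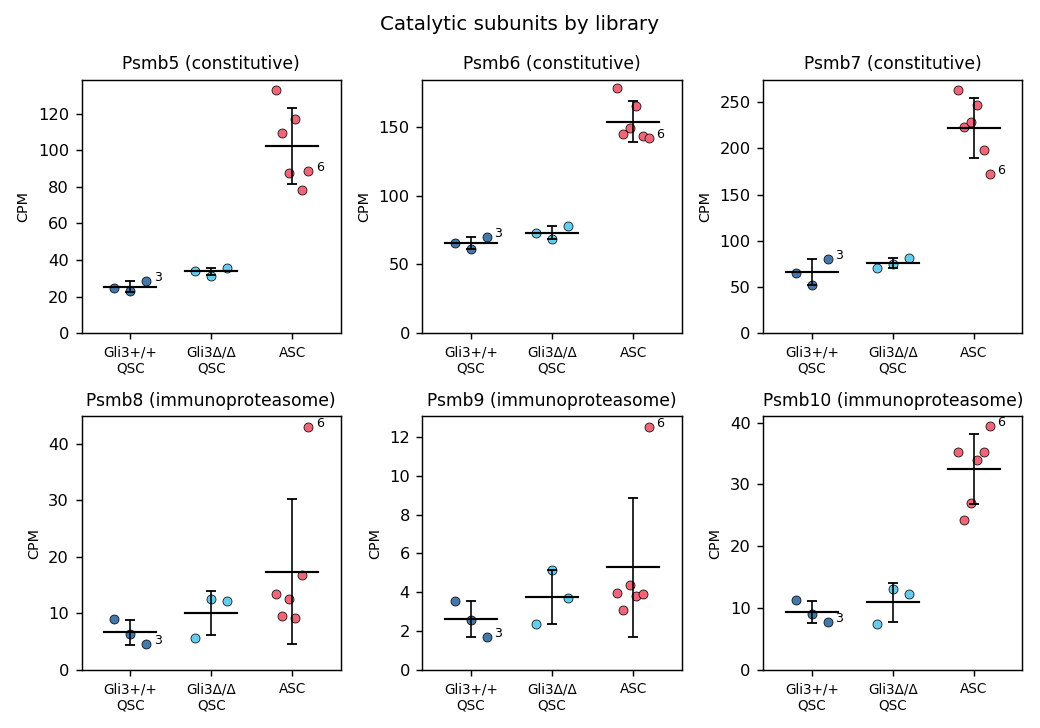
CPM of the constitutive (top) and immunoproteasome (bottom) catalytic subunits in each library, with points for libraries and lines and bars for the mean and SD of each group, and with ASC 6 and Gli3+/+ QSC 3 numbered. All ASC libraries sit above all QSC libraries for Psmb5, Psmb6, Psmb7 and Psmb10, while Psmb8 and Psmb9 overlap and peak in ASC 6 at 42.9 and 12.5 CPM.

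The balance within each pair was measured as the immunoproteasome share, the level of the immunoproteasome subunit per kilobase of its main transcript over the sum of both subunits of the pair. Constitutive transcripts dominated in every library, with the share never above 21.1%, or 32.6% where levels were not divided by transcript length, both for Psmb8 in ASC 6. The share of Psmb8 in Psmb8 plus Psmb5 was 16.9%, 13.1% and 8.19% in Gli3+/+ QSCs, 8.28%, 18.1% and 15.8% in Gli3Δ/Δ QSCs, and 5.28%, 4.54%, 7.32%, 4.11%, 10.6% and 21.1% in ASCs 1 to 6. ASC 6 was the highest of the 12 libraries, and 4 of the other ASC libraries were below every QSC library. The means were 8.81% ± 6.45 in ASCs and 13.4% ± 4.32 in QSCs (SD, n = 6 each), a difference that did not pass a two-sided exact permutation test (p = 0.177, adjusted p = 0.997 over 6 tests, smallest p possible 0.00216). Without division by length ASCs were also lower, and the difference did not pass either (adjusted p = 0.948, exact permutation test). As log2 ratios of the 2 subunits, ASCs were lower by 0.91 for Psmb8 to Psmb5 (difference -0.91, exact permutation p = 0.0714, adjusted p = 0.247) and by 0.63 for Psmb9 to Psmb6 (-0.63, exact permutation p = 0.0823, adjusted p = 0.247).

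The share of Psmb9 in Psmb9 plus Psmb6 was 2.01% ± 1.44 in ASCs and 2.63% ± 0.992 in QSCs (SD, n = 6 each, exact permutation p = 0.418, adjusted p = 0.997). ASC 6 was at 4.94% and the other ASC libraries lay between 1.25% and 1.68%, near the lower end of the QSC range of 1.41% to 4.25%. Without ASC 6 the shares of Psmb8 and Psmb9 in ASCs were lower than in QSCs by 7.04 and 1.2 percentage points (exact permutation test, adjusted p = 0.0649 for both over the pairs tested). Without ASC 6 and Gli3+/+ QSC 3 together they were lower by 8.08 and 1.44 percentage points (exact permutation test, adjusted p = 0.0476 for both). These libraries were chosen after the values were seen. For both pairs ASC 6 had the highest ASC share and Gli3+/+ QSC 3 the lowest QSC share. Leaving them out moves the groups apart by construction, so passing the threshold in that setting decides nothing. The share of Psmb10 in Psmb10 plus Psmb7 was 11.7% ± 3.02 in ASCs and 11.3% ± 2.55 in QSCs (SD, n = 6 each, exact permutation p = 0.831, adjusted p = 0.997). In both states it ranged widely, from 8.77% to 16.8% in ASCs and from 7.86% to 13.4% in QSCs.

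**Figure D4:**
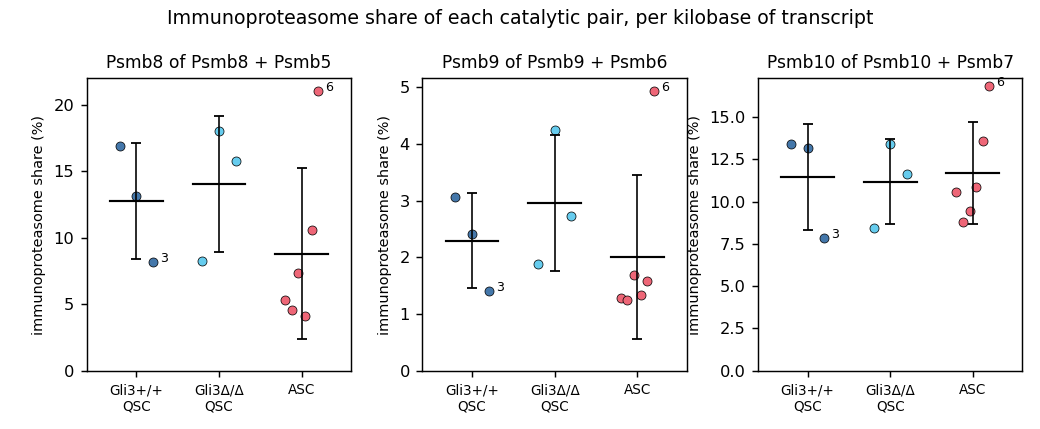
Immunoproteasome share of each catalytic pair in percent, per kilobase of transcript, in each library, with points for libraries and lines and bars for group means and SD. ASC 6 is the highest ASC library in all 3 panels, at 21.1%, 4.94% and 16.8%, and for Psmb8 the other ASCs lie between 4.11% and 10.6%.

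All 17 subunits of the 19S regulator rose in ASCs, with a median log2 fold change of 1.42. The ATPases, which unfold the substrate, ran from Psmc6 (log2 fold change 1.17 ± 0.12, SE) to Psmc1 (1.68 ± 0.11, SE). Psmc1 was at 61.7 to 83.6 CPM in QSCs and at a lowest level of 192, a median of 228 and a highest of 273 in ASCs. In the base, the scaffold gene Psmd1 changed by a log2 of 1.65 ± 0.14 (SE), from 84.8 to 138 CPM in QSCs to 253 to 387 in ASCs, and the ubiquitin receptor gene Psmd4 by 0.91 ± 0.11 (SE). Psmd4 was the least changed base subunit, at 71.8 to 97.9 CPM in QSCs and 127 to 170.5 in ASCs.

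In the lid, Psmd14, the deubiquitinase that removes ubiquitin chains, changed most (log2 fold change 1.81 ± 0.16, SE, adjusted p = 8.55e-07, edgeR). It was at 31.0, 29.8 and 54.1 CPM in Gli3+/+ QSCs, 43.3, 37.6 and 40.7 in Gli3Δ/Δ QSCs, and between 108 and 159 in ASCs with a median of 142. Psmd11 changed least (log2 fold change 0.87 ± 0.16, SE, adjusted p = 0.000505, edgeR), at 71.9, 65.5 and 126 CPM in Gli3+/+ QSCs, 76.1, 63.9 and 69.7 in Gli3Δ/Δ QSCs and 105 to 161 in ASCs. It was the only 19S subunit whose groups overlapped, through the level of 126 CPM in Gli3+/+ QSC 3. Without that library its log2 fold change was 1.04 (adjusted p = 1.86e-05, edgeR).

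The assembly factors split. Among the chaperones of the 19S base, Psmd10 (gankyrin) had the largest change of any member called, 3.71-fold (log2 1.89 ± 0.13, SE, adjusted p = 1.5e-07, edgeR), from 6.48 to 10.8 CPM in QSCs to 28.3 to 34.5 in ASCs. Psmd5 rose 2.62-fold. Psmd9, which belongs to the same group, was at 34.0 to 42.6 CPM in QSCs and 31.97 to 41.0 in ASCs, and its groups overlapped almost fully (log2 fold change -0.01 ± 0.09, SE, adjusted p = 0.91, edgeR). Among the chaperones of the 20S core, Psmg1 rose 2.98-fold, Psmg3 2.37-fold and Psmg2 1.46-fold, while Psmg4 lay between 10.6 and 14.6 CPM in QSCs and between 8.32 and 13.0 in ASCs (log2 fold change -0.13 ± 0.14, SE, adjusted p = 0.451, edgeR). Psmg1 went from 9.48 to 12.5 CPM in QSCs to 23.7 to 41.6 in ASCs.

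The activators also split. Psme1 and Psme2 encode the subunits of PA28αβ, the interferon-inducible cap, Psme3 the nuclear PA28γ, and Psme4 the PA200 cap. Psme1 was at 46.0, 41.1 and 36.2 CPM in Gli3+/+ QSCs, 40.5, 55.9 and 50.8 in Gli3Δ/Δ QSCs and 48.3, 47.7, 50.03, 39.5, 48.8 and 63.1 in ASCs, and the groups overlapped (log2 fold change 0.14 ± 0.12, SE, adjusted p = 0.332, edgeR). Its partner Psme2 was at 38.7, 30.9 and 35.3 CPM in Gli3+/+ QSCs, 38.3, 46.1 and 48.0 in Gli3Δ/Δ QSCs and 63.9, 71.0, 69.0, 60.9, 64.1 and 72.2 in ASCs. Psme2 was thus higher in every ASC library (1.7-fold, adjusted p = 1.05e-05, edgeR), although the products of both genes share one ring. Its near-copy Psme2b never passed 2.85 CPM, the ASC 6 level, and was not called (adjusted p = 0.065, edgeR). Reads of Psme2 and Psme2b may have been split between them, so Psme2b is uncertain.

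Psme3 was at 62.2, 54.9 and 151 CPM in Gli3+/+ QSCs, 79.4, 73.9 and 70.9 in Gli3Δ/Δ QSCs and 227, 214, 211, 241, 189 and 151 in ASCs. Gli3+/+ QSC 3 reached the lowest ASC level, and the other QSC libraries were far below it. The change was 2.51-fold (log2 1.33 ± 0.22, SE, adjusted p = 0.000225, edgeR), and a log2 of 1.63 without Gli3+/+ QSC 3 (adjusted p = 8.91e-07, edgeR). Psme4 rose 1.82-fold. Psmf1 (PI31), named as an inhibitor of the core, changed little, at 24.7 to 29.2 CPM in QSCs and 23.7 to 30.7 in ASCs (log2 fold change -0.03 ± 0.09, SE, adjusted p = 0.824, edgeR). Psmc3ip rose 3.23-fold, from 3.8 to 6.37 CPM to 11.8 to 19.7.

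ASC libraries also differed among themselves. ASC 6 was the lowest ASC library for 38 of the 49 members (77.6%) and the highest for 6, where it was lowest for 30.5% and highest for 34.0% of all genes with a mean of at least 1 CPM. ASC 1 was highest for 19 members (38.8%) and lowest for 0, beside 9.62% and 12.8% of all such genes. ASC 4 was highest for 16 members (32.7%), beside 20.6% of all such genes. The share of ASC 6 in the lowest levels was therefore larger for proteasome genes than for genes at large, as a description of these libraries.

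Gli3Δ/Δ QSCs were compared with Gli3+/+ QSCs to ask whether loss of Gli3 goes with a change in these genes before injury. No member was called in either direction in this test. In data simulated from these QSC libraries, edgeR recovered 39% of planted 2-fold changes over genes at large. A lack of calls therefore does not show that members were unchanged. By the same rule 0.187% of all genes were called higher, 0.163% lower and 0.351% in either direction (88 genes), so that few calls could fall among 49 genes. At an unadjusted p under 0.05, 1 member passed in edgeR, beside 7.11% of all genes, and the smallest adjusted p was 0.637. DESeq2 also called 0 members, beside 190 genes called higher and 188 lower among 24811 tested. With limma-voom 0 members were called as well. Over the alternatives other than leaving out a library, 22 to 190 genes were called higher and 26 to 188 lower. The median log2 fold change of members was 0.06, against -0.03 over all genes. Ranges of the 3 and 3 libraries did not overlap for 6 members (Psma4, Psmb1, Psmb3, Psmb5, Psmc3 and Psmc3ip), all higher in Gli3Δ/Δ QSCs. Among all genes 13.1% did not overlap in either direction and 7.39% did not overlap and were higher. Summed over members, RNA was at 2587 ± 478 CPM in Gli3+/+ QSCs and 2720 ± 82.6 in Gli3Δ/Δ QSCs (SD, n = 3 each), and the higher SD came from Gli3+/+ QSC 3 at 3128 CPM against 2411 and 2222 in the other control libraries. Gli3+/+ QSC 2 was the lowest QSC library for 35 of the 49 members (71.4%), where it was lowest for 20.5% of all genes with a mean of at least 1 CPM.

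Psmb5 was the member with an unadjusted p under 0.05. Its log2 difference was 0.38 ± 0.15 (SE, adjusted p = 0.637, edgeR), and each of the 3 Gli3Δ/Δ libraries, at 31.4 to 35.6 CPM, lay above the 3 Gli3+/+ libraries, at 22.8 to 28.7. Without Gli3+/+ QSC 3 it was 0.50 (adjusted p = 0.268, edgeR). The other constitutive subunits had log2 differences of 0.12 ± 0.13 (Psmb6) and 0.17 ± 0.18 (Psmb7). For the immunoproteasome subunits the log2 differences were 0.57 ± 0.34 (Psmb8), 0.50 ± 0.35 (Psmb9) and 0.19 ± 0.25 (Psmb10), with adjusted p of 0.834, 0.88 and 0.932 (edgeR). Their groups overlapped, since Gli3Δ/Δ QSC 1 was as low as the control libraries for each while the other Gli3Δ/Δ libraries were the highest QSC libraries.

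The immunoproteasome share did not separate the genotypes. It was 14.1% ± 5.12 in Gli3Δ/Δ QSCs and 12.8% ± 4.38 in Gli3+/+ QSCs for Psmb8, 2.95% ± 1.2 and 2.30% ± 0.837 for Psmb9, and 11.2% ± 2.52 and 11.5% ± 3.13 for Psmb10 (SD, n = 3 each). The exact permutation p was 0.7, 0.5 and 1, and 3 libraries against 3 cannot give a p below 0.1. In the remaining classes no difference passed the threshold. Psmd11 had the lowest log2 difference of the 19S subunits (-0.37 ± 0.25, SE, adjusted p = 0.869, edgeR), and without Gli3+/+ QSC 3 it was 0.01. Psme3 was at -0.30 ± 0.35 (SE) and turned to 0.34 without that library (adjusted p = 0.503, edgeR). Psme2 and Psme1 were at 0.30 ± 0.15 and 0.23 ± 0.16 (SE).

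Other named genes followed the rule of class extremes. The highest and lowest log2 differences were 0.28 ± 0.12 (Psma4) and -0.06 ± 0.20 (Psma3) among alpha subunits, and 0.21 ± 0.13 (Psmb1) and 0.01 ± 0.20 (Psmb2) among non-catalytic beta subunits. They were 0.14 ± 0.12 (Psmc3) and -0.07 ± 0.16 (Psmc6) for ATPases, 0.06 ± 0.17 (Psmd4) and -0.08 ± 0.21 (Psmd2) for the base, and 0.18 ± 0.17 (Psmd8) at the upper end of the lid. The assembly chaperones ran from -0.01 ± 0.13 (Psmd5) to 0.23 ± 0.22 (Psmd10) and from -0.12 ± 0.16 (Psmg2) to 0.18 ± 0.20 (Psmg3), all with SE. Psmf1 was at 0.03 ± 0.13, Psmb11 at -0.35 ± 0.30, Psmc3ip at 0.36 ± 0.22 and Psme2b, with 0 counts in 2 QSC libraries, at -1.03 ± 1.51. None of these passed the threshold.

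**Figure D5:**
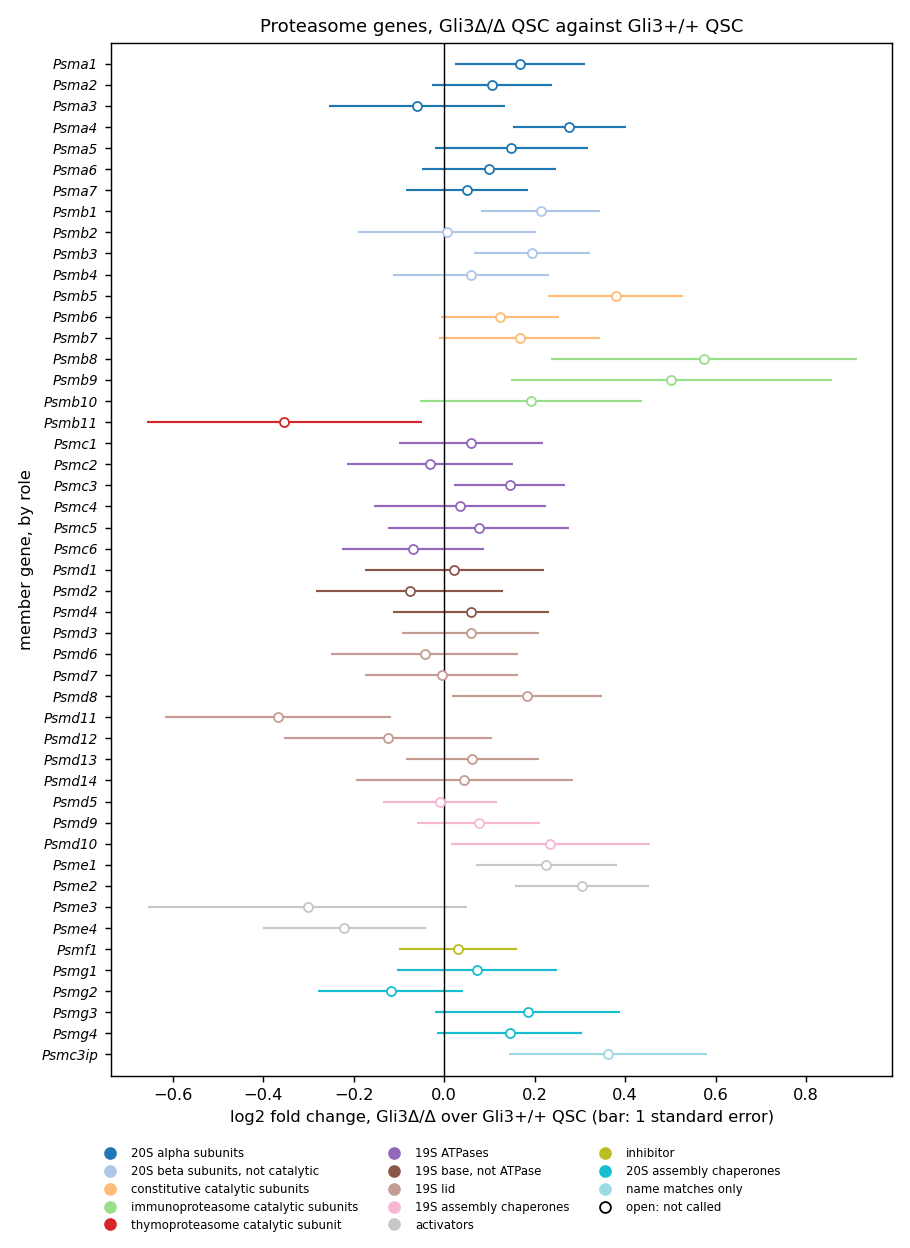
Log2 fold change of each member in Gli3Δ/Δ over Gli3+/+ QSCs, with 1 standard error, coloured by role and drawn open because none was called (Psme2b is not drawn). Points lie between -0.37 (Psmd11) and 0.57 (Psmb8), and the immunoproteasome genes Psmb8 and Psmb9 have the largest values.

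Genes that work with the proteasome but carry other names were followed in a separate list, of which 18 of 21 were in the table. Between ASCs and QSCs 11 rose and 1 fell, beside 31.1% and 27.8% of all genes. Uchl5 and Usp14, which encode the deubiquitinases bound to the 19S regulator, rose 4.4-fold (from 16.5 to 18.98 CPM in QSCs to 55.0 to 91.4 in ASCs) and 3.82-fold, more than any member that was called, and Pomp, the maturation factor of the core, rose 2.55-fold. Adrm1, a ubiquitin receptor of the 19S base, rose 2.15-fold, and Nfe2l1, which encodes NRF1, rose 1.39-fold. Ngly1, the glycanase that processes NRF1, fell, with a log2 fold change of -1.07 ± 0.13 (SE), from 36.1 to 48.6 CPM in QSCs to 15.9 to 27.2 in ASCs. Nfe2l2 and Ddi2 were not called.

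Vcp encodes the p97 unfoldase, which hands substrates to the proteasome. It was at 205, 185 and 245 CPM in Gli3+/+ QSCs and at 371, 370.5 and 363 in Gli3Δ/Δ QSCs, and every Gli3Δ/Δ library was above every Gli3+/+ library. The log2 difference was 0.77 ± 0.15 (SE), with an adjusted p of 0.101 in edgeR, 0.028 in limma-voom and 0.000642 in DESeq2, and edgeR with plain CPM scaling gave 0.0413, so the call depended on the tool and on the scaling. Without Gli3+/+ QSC 3 it was 0.90 (adjusted p = 0.0184, edgeR), and without each other QSC library in turn the adjusted p lay between 0.271 and 0.360. In ASCs Vcp lay between 449 and 911 CPM (2.51-fold, adjusted p = 3.67e-05, edgeR). Between QSC genotypes 0 of the 18 partners were called in edgeR, and 2, Vcp and Ubqln2, had an unadjusted p under 0.05, beside 7.11% of all genes.

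Genes of antigen processing and of the interferon-gamma response, which share inducers with the immunoproteasome, were followed in ASCs as well. Of 13 measured, 5 rose and 2 fell, beside 31.1% and 27.8% of all genes, and without ASC 6, 5 rose and 6 fell, beside 30.1% and 30.6% of all genes. Tap1, the peptide transporter subunit encoded beside Psmb8 and Psmb9, rose 2.3-fold, from 8.68 to 17.2 CPM in QSCs to 20.5 to 43.8 in ASCs. Tap2 rose 1.59-fold (not called against Gli3Δ/Δ QSCs alone, adjusted p = 0.0572), Ifngr2 3.43-fold, B2m, the light chain of MHC class I, 2.04-fold (not called against either QSC genotype alone, adjusted p = 0.0777 and 0.140), and Nlrc5, the transactivator of MHC class I genes, 5.62-fold from about 0.903 CPM on average in QSCs. B2m and Nlrc5 were highest in ASC 6, at 451 and 15.3 CPM, and without it their log2 fold changes fell from 1.03 to 0.47 and from 2.49 to 1.67 (adjusted p = 0.0145 and 0.000608, edgeR). Irf1, an interferon-induced activator of Psmb9, fell to a log2 fold change of -1.47 ± 0.21 (SE), from 70.1 to 167 CPM in QSCs to 33.3 to 60.6 in ASCs. Erap1, the peptide trimmer of the endoplasmic reticulum, fell as well (log2 fold change -0.68 ± 0.16, SE), but was not called against Gli3+/+ QSCs alone (adjusted p = 0.0521, edgeR). H2-K1, an MHC class I gene, and Ifngr1 had log2 fold changes of -0.71 ± 0.31 and -0.57 ± 0.25 (SE). Neither was called (adjusted p = 0.0613 and 0.0695, edgeR). H2-K1 lay between 175 and 300 CPM in QSCs, between 92.6 and 134 in ASCs 1 to 5 and at 346 in ASC 6. Ifngr1 lay between 62.7 and 78.9 CPM in QSCs, between 34.9 and 41.5 in ASCs 1 to 5 and at 100 in ASC 6. Both were picked out after their values were seen. Between the QSC genotypes 0 of the 13 were called in edgeR, and 2, H2-D1 and Erap1, had an unadjusted p under 0.05, beside 7.11% of all genes. H2-D1, a classical MHC class I heavy chain picked out after its values were seen, was at 408, 458 and 465 CPM in Gli3+/+ QSCs and 222, 277 and 312 in Gli3Δ/Δ QSCs, with no overlap (log2 difference -0.75 ± 0.16, SE, adjusted p = 0.15, edgeR). DESeq2 called it lower (adjusted p = 0.00398), and limma-voom did not (adjusted p = 0.119).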

How the data were processed

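RNA from 12 libraries was sequenced by the authors after poly(A) selection with a directional kit, and reads were quantified with Salmon on GENCODE transcripts of GRCm38 and summed per gene with tximport. The deposited table holds estimated counts per gene, of which 44.3% to 51.0% per library are not whole, and the authors kept genes with at least 5 reads in at least 2 samples. Their comparison columns (fold changes and p-values from DESeq2) were not used.

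Rounding gave whole numbers for the quasi-likelihood test of edgeR 4.0.16 in R 4.3.3, with TMM scaling and Benjamini-Hochberg adjustment. QSC genotypes were fitted on the 6 QSC libraries, and ASCs against the mean of both QSC genotypes on all 12. Calls required a fold of 1.2 or more together with an adjusted p below 0.05. The standard error of a log2 fold change was its size over the square root of F. Shares of catalytic pairs were compared with exact two-sided permutation tests (6 tests) and summed CPM was given without a test. Alternatives were DESeq2 1.42.0, limma-voom (limma 3.58.1), other scalings and filters, a replicate block and leaving out each library. The scripts were tested on simulated data.

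All members were eligible to be named, with catalytic subunits and class extremes in full. Members and lists were chosen with earlier results of these data known. Each QSC library is a separate pool of mice and each ASC library a separate mouse. No pair of libraries within a group was a duplicate (lowest chi-square per degree of freedom 36.1), and pairs across groups were not compared.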

Additional observations from a re-analysis of the deposited data

Results flagged for a closer look

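In 62 sets of 6 ASC values (49 members, 3 pair shares, 9 marker sums and the summed CPM of members), the highest or lowest library was compared with its nearest neighbour by Dixon's criterion at 95%, which chance passes in about 1 of 20 sets. It was passed in 11, each time by ASC 6, as the highest library in all but Psma2, where it was the lowest at 121 CPM against 152 in the next library. Psmb8 was at 42.9 CPM there against 16.7 in the next library, Psmb9 at 12.5 against 4.35, and Psme2b at 2.85 against 0.51. The share of Psmb9 in Psmb9 plus Psmb6 was 4.94% against 1.68%.

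The same library stood out for marker sums. Macrophage markers were at 5258 CPM against 742 in the next library, fibro-adipogenic markers at 3300 against 505, Schwann cell markers at 676 against 57.4, and endothelial markers at 325 against 111. Lymphocyte markers were at 4.62 CPM against 1.13, and markers of the dissociation response at 2692 against 1177. Ptprc, which encodes the CD45 used to gate blood cells out, was at 209 CPM in ASC 6 and between 9.39 and 28.1 in the other ASC libraries. The part of these other cell types in the levels of Psmb8, Psmb9 and Psme2b was not tested.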

How the results depend on the processing

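Of the 42 members called higher in ASCs, 41 were called higher in every alternative run, and only Psmb8 lost its call, with limma-voom (log2 fold change 0.58), against Gli3Δ/Δ QSCs alone (0.77), without ASC 6 or, one at a time, 3 QSC libraries (Gli3+/+ QSC 2, Gli3+/+ QSC 3 and Gli3Δ/Δ QSC 1), and without ASC 6 and Gli3+/+ QSC 3 together (0.48), a setting chosen after seeing the data. With both of these left out, the shares in ASCs were lower than in QSCs by 8.08 points for Psmb8 (difference -8.08, adjusted p = 0.0476, exact permutation test), 1.44 for Psmb9 (-1.44, adjusted p = 0.0476) and 1.37 for Psmb10 (-1.37, adjusted p = 0.587). For all 3 pairs ASC 6 had the highest ASC share and Gli3+/+ QSC 3 the lowest QSC share. Leaving both out therefore moves the groups apart by construction, and these p-values decide nothing. Against Gli3Δ/Δ QSCs alone, 0 members were called lower. Leaving out each library gave 41 to 43 members higher, 7354 to 7868 genes higher and 6173 to 7675 lower. Share differences between ASCs and QSCs then ran from -7.04 to -3.65 points (Psmb8), -1.20 to -0.288 (Psmb9) and -0.677 to 0.938 (Psmb10), and the log2 ratio of Psmb10 to Psmb7 was -0.0356 (main share difference 0.355). Between QSC genotypes they ran from -0.987 to 4.18 (Psmb8), 0.0106 to 1.19 (Psmb9) and -2.11 to 1.06 (Psmb10), and the summed CPM difference from -49.9 to 403 (ASCs over QSCs, 3800 to 4185).

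Between QSC genotypes members called stayed at 0 under every alternative. DESeq2 called 190 genes higher and 188 lower, and a minimum of 10 counts in every library 22 and 26 among fewer genes tested. Leaving out each library gave 32 to 50 higher and 26 to 53 lower, the lowest without Gli3Δ/Δ QSC 3. The replicate numbers did not pair the libraries (correlations of same-numbered deviations -0.0829, -0.0383 and 0.00156), and with a replicate block 41 genes were higher, 38 lower and 0 of them members. The cause of these changes was not tested. Erap1 lost its call against Gli3+/+ QSCs alone, Psmb11 and Tap2 against Gli3Δ/Δ QSCs alone, and B2m against either alone and without Gli3Δ/Δ QSC 2. Sign changes of single genes were limited to differences that did not pass the threshold. In QSCs they were Psma3 (0.084), Psmd2 (0.0951), Psmd5 (0.0208) and Psme3 (0.125) with limma-voom and Psmd5 (0.0272) with plain CPM scaling, and, over libraries left out, Psma3 (-0.17 to 0.19), Psmb2 (-0.13 to 0.26), Psmc6 (-0.154 to 0.0795), Psmd2 (-0.20 to 0.21), Psmd4 (-0.0591 to 0.225), Psmd5 (-0.048 to 0.0366), Psmd11 (-0.537 to 0.0104), Psme3 (-0.55 to 0.34), Psmf1 (-0.0191 to 0.0821) and Psmg2 (-0.206 to 0.0105). In ASCs against QSCs they were Psmd9 with limma-voom (0.0164), against Gli3+/+ QSCs alone (0.0348) and without both libraries (0.0213), Psmf1 without both (0.0223), and, over libraries left out, Psmd9 (-0.0543 to 0.0308) and Psmf1 (-0.0422 to 0.00627). The genotype comparison in ASCs was not run. Levels of Psmb11, near 1 CPM, and of Psme2b, at most 0.51 CPM outside ASC 6, are limited by counts. Psme2b was called higher by DESeq2 (adjusted p = 0.0427), without Gli3Δ/Δ QSC 1 (0.0442) and without ASC 3 (0.0331).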
